A study of Homo sapiens with 35 samples.

Results

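A set of 10 genes of the transcription elongation machinery were followed in a human colorectal carcinoma line whose Mediator kinases had been knocked down. The genes encode P-TEFb, a protein that holds it inactive, and the super elongation complex, which carries it to RNA polymerase II. They were CDK9, CCNT1, CCNT2, HEXIM1, LARP7, AFF1, AFF4, ELL, ELL2 and MLLT3. A gene was used where the array had a transcript cluster that names it alone, and where several did, the one brightest on average across arrays was taken. This left 9 of the 10 listed genes, of 18404 genes measured in all. The only cluster of LARP7, whose protein stabilises the 7SK RNA, also names ZGRF1, so no value is given for it. ELL2 had 2 clusters of its own, and the gene table also holds 4 ELL2 pseudogenes, so its signal is less certain than that of the other genes.
P-TEFb is a pair of the kinase CDK9 and a T-type cyclin, CCNT1 or CCNT2. Soon after initiation RNA polymerase II pauses near the promoter, and P-TEFb releases it by phosphorylating the polymerase and the factors that hold it. Much of the cell's P-TEFb is stored in an inactive particle built on 7SK RNA, in which HEXIM1 is the inhibitor. The active kinase joins the scaffolds AFF1 or AFF4, the elongation factors ELL or ELL2, and MLLT3, a reader of acetylated histones, in the super elongation complex. CDK8 and its paralogue CDK19 are kinases of Mediator, and CDK8 has been linked to the recruitment of this complex at stress-induced genes.
The cells were HCT116, an established line, and all carried a short hairpin RNA. The hairpin was against CDK8 in the shCDK8 line, against CDK19 in the shCDK19 line and without a target in the shControl line. The labels tell apart no more than 1 hairpin line per target, so the loss of the target and other properties of a line cannot be told apart. Total RNA of the bulk culture was measured on 35 arrays in 14 groups and 4 experiments. Each line had 3 arrays in normal growth. After 12 h in 5-fluorouracil (5FU, an antimetabolite that disturbs thymidylate synthesis) each line had 2 arrays, and the shControl line had 2 after the solvent DMSO. After 24 h in low glucose medium each line had 3 arrays, and the shControl line had 3 in high glucose medium. After 24 h at 1% oxygen (hypoxia) each line had 2 arrays. No knockdown array in DMSO or high glucose, and no normoxic array of the hypoxia experiment, was analysed here.
Values are log2 signals, and changes are log2 differences ± SE from limma. A gene is said to have passed when its p, adjusted by Benjamini-Hochberg over all 18404 genes, was under 0.05. No label says that the arrays of a group came from separate cultures, so the p-values speak to array-to-array spread alone, and that spread may be technical. In bulk RNA, fewer cells of a type and less RNA per cell cannot be told apart. Each array had its 75th percentile between 8.96 and 9.25, and within groups the correlation across genes ran from 0.976 to 0.998. A pair of arrays stood apart: shControl hypoxia replicate 1, with the lowest 75th percentile, and shCDK8 normal growth replicate 1, which correlated with its group at r of 0.987 and 0.989, where the other two of that group had r = 0.997 with each other. The next lowest 75th percentile was that of shControl DMSO replicate 1, at 9.03 against 9.12 on DMSO replicate 2 (r = 0.992 between them). All 7 epithelial markers were high, with group means between 9.16 and 13.39. In the shCDK8 line the cluster that holds CDK8 (it also names ADRA1B) was lower than in shControl cells in each of the 4 conditions, with changes of -2.12, -2.74, -2.13 and -2.02 in normal growth, 5FU, low glucose and hypoxia. CDK19 was lower in the shCDK19 line by -1.50, -1.08 and -1.56 in the first 3 of these, and its change of -1.10 in hypoxia did not pass (adjusted p = 0.0949).
Promoter sequences of 3 of the genes are shown with the letters searched. AFF4 is shown because it differed most between the lines, ELL because it differed under hypoxia, and HEXIM1 because its window alone held a TATA box. The sequences are the 250 bases before the annotated start, 5′ to 3′ on the gene's strand, from RefSeq (GRCh38.p14). Capitals mark matches, on either strand, to the core of the hypoxia response element (ACGTG or GCGTG), the palindromic E-box (CACGTG) and the TATA box (TATAAA). An E-box holds the hypoxia core on both strands, so each E-box also counts as 2 core matches. The windows searched ran from 250 bases before to 50 after the start, and 9 of the 10 listed genes had at least 1 window.
AFF4, chr5:132963635-132963884, minus strand: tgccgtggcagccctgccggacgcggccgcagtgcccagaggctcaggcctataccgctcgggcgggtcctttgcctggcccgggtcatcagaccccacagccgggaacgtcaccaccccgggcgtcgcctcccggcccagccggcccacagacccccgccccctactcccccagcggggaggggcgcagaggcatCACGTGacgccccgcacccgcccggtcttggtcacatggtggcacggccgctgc
ELL, chr19:18522071-18522320, minus strand: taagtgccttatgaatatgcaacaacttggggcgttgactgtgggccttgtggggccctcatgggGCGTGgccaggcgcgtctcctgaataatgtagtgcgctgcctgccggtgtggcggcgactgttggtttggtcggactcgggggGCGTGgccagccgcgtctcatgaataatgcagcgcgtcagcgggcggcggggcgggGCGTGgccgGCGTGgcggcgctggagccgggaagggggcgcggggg
HEXIM1, chr17:45148225-45148474, plus strand: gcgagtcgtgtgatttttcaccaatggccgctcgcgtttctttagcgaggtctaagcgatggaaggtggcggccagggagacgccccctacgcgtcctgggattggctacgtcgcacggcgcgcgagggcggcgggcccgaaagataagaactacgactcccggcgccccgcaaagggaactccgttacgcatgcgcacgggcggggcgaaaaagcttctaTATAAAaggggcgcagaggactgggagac
The AFF4 window held 1 E-box, at position -54 from the start, and 7.26% of the 35116 promoter windows held at least 1. The ELL window held 4 core matches, at positions -185, -102, -46 and -37. Of all windows 4.4% held 4 or more, a cut taken from the count of ELL itself. A window of CCNT1 also held an E-box, at position -234. At least 1 core match stood in 48.4% of all windows. Core matches also stood at -76 in CCNT2, and at -45 and -16 in 1 AFF1 window and -206 in another. LARP7 held them at -246 in 1 window and at -106 and -38 in another. The TATA box of HEXIM1 stood at position -29, and 11.5% of all windows held 1. No window of CDK9 or MLLT3 held any of these letters.
Across the 14 groups AFF4 and MLLT3 varied most. The range of group means was 2.40 for AFF4 and 2.27 for MLLT3, against a median of 0.81 over the 17709 genes above the array's floor throughout. Both lay in the top 3% by this measure (percentiles 97.6 and 97.1). CCNT1 varied least, with a range of 0.53 (percentile 22.9), and AFF1 had 0.66, ELL 0.71, HEXIM1 0.83, ELL2 0.93, CCNT2 0.98 and CDK9 1.33. All 9 genes were above the floor on all 35 arrays. The groups span 4 experiments. Between groups of different experiments, condition and experiment cannot be told apart in these ranges or in the orders that follow.
The order of AFF4 began with shControl cells in low glucose (10.61) and ended with shCDK8 cells in 5FU (8.21). The lowest 4 places were the 4 shCDK8 groups, at 8.93, 8.72, 8.71 and 8.21 in low glucose, normal growth, hypoxia and 5FU. On the 10 shCDK8 arrays AFF4 lay between 8.20 and 8.97, and on the other 25 arrays between 9.80 and 10.63, so the sets did not overlap. Among the 13 neighbouring pairs of groups in its order, 8 overlapped in their arrays. MLLT3 ran from 8.27 in shControl cells in high glucose to 5.99 in shCDK8 cells in 5FU, with the 3 groups in 5FU at the bottom, and 9 of its 13 neighbouring pairs overlapped. CDK9 was highest in the glucose experiment (11.92 in shCDK8 cells in low glucose) and lowest in the 5FU experiment (10.59 in shControl cells in 5FU), with 8 overlapping pairs. For CCNT1 all 13 neighbouring pairs overlapped, for CCNT2 12, for ELL 11, for HEXIM1 and ELL2 10 each, and for AFF1 8. Neighbours in an order of means are close by construction, and no such count was made over all genes. These counts therefore do not measure how much a gene varied.

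**Figure D1:**
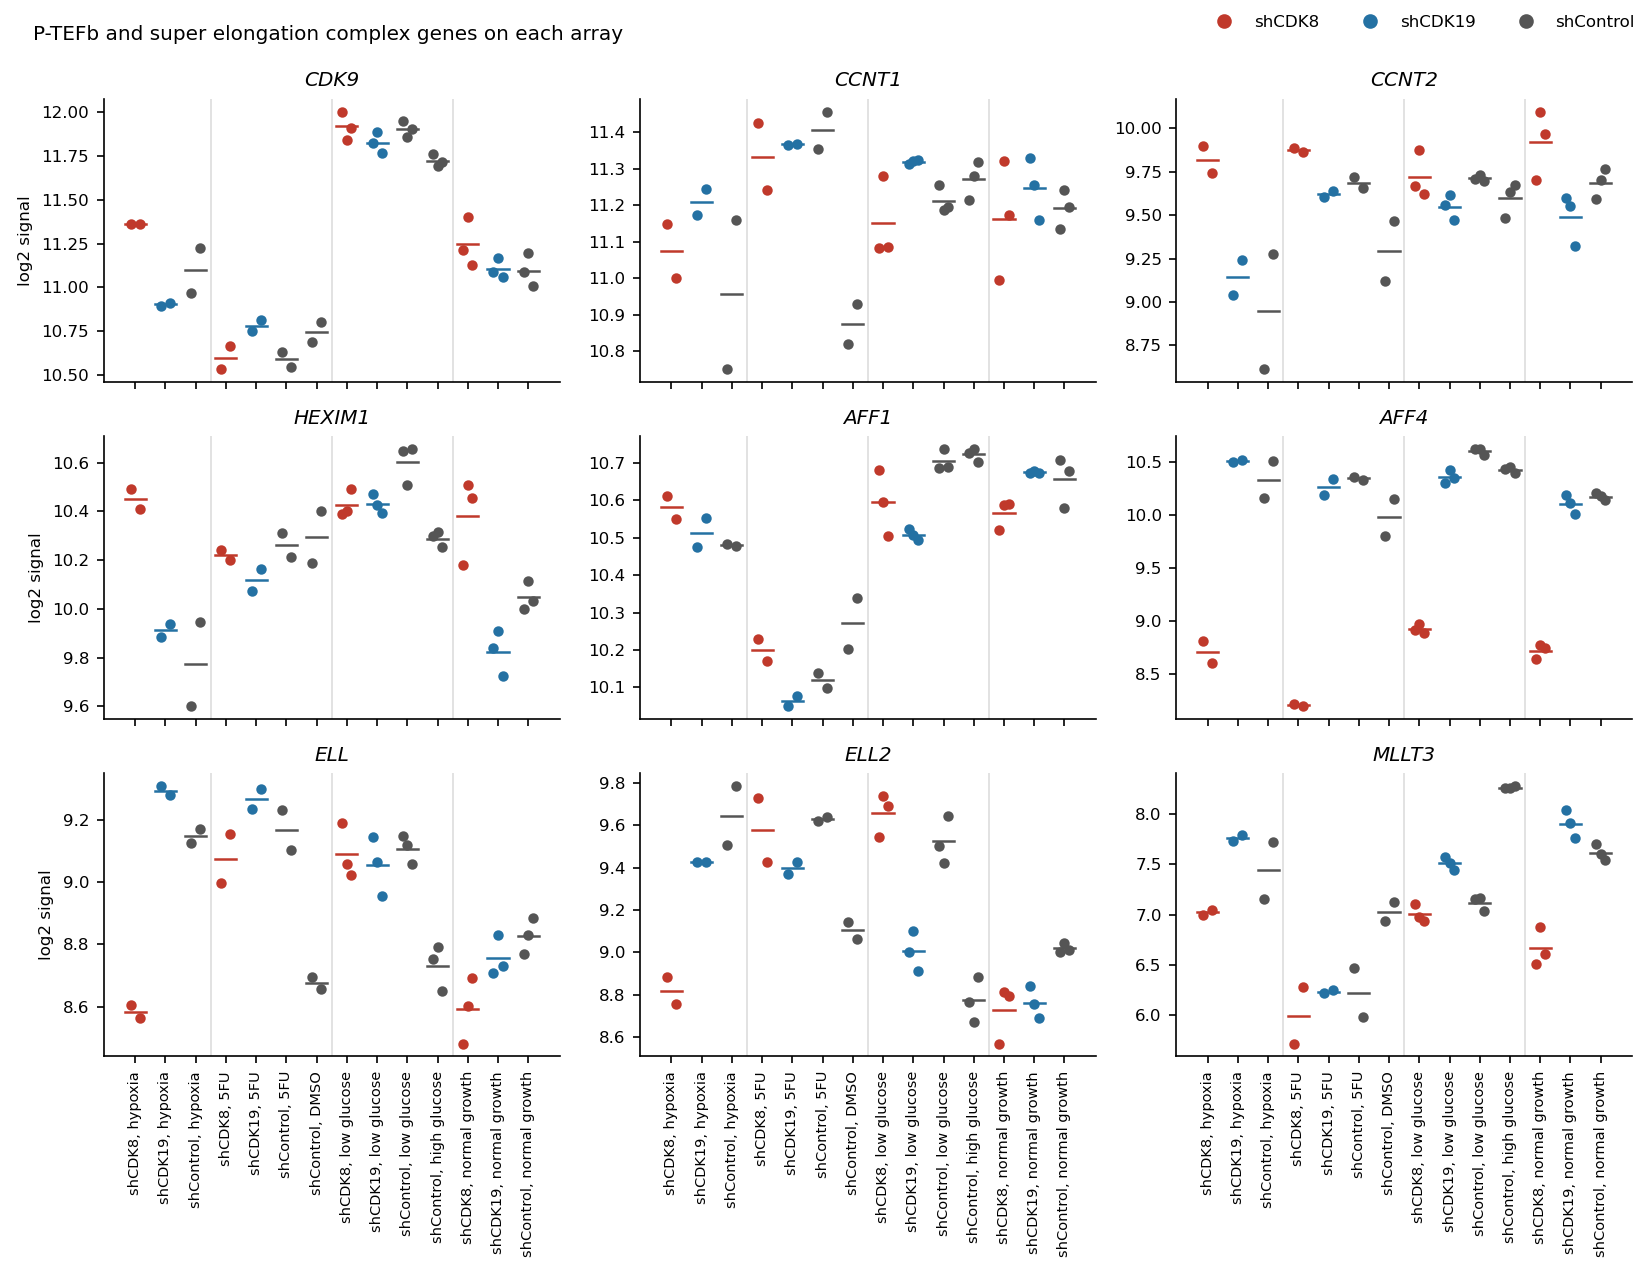
Log2 signal of 9 P-TEFb and super elongation complex genes (1 panel each, vertical axis) on the 35 arrays, by group (horizontal axis); points are arrays, bars are group means, colours are the lines, and grey lines separate the experiments. The 10 shCDK8 arrays of AFF4 lie between 8.20 and 8.97, below the other 25, and the vertical scale differs between panels.

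The first comparison asked how each knockdown line differed from shControl cells within an experiment. In normal growth 5 of the 9 genes passed in the shCDK8 line, 1 higher and 4 lower, where 24.9% of all genes passed. In 5FU 1 passed, lower (3.5% of all genes). In low glucose 2 passed, both lower (22.3% of all genes). Under hypoxia 3 passed, all lower (7.3% of all genes). AFF4 was among them each time. These counts are 55.6%, 11.1%, 22.2% and 33.3% of the 9 genes, and the share in low glucose was that of all genes. The medians of the 9 genes were -0.09, -0.05, -0.06 and 0.10 in these conditions, beside -0.02, 0.01, -0.00 and -0.07 over all genes.
In the shCDK19 line 1 gene passed higher and 4 lower in low glucose, where 19.9% of all genes passed. None passed by limma in normal growth (7.07% of all genes), 5FU (0.837%) or hypoxia (0.228%), where 3, 1 and 0 of the 9 had an unadjusted p under 0.05. An ordinary linear model called 0 of the 9 in those conditions too, but it called only 1039, 20 and 3 of all genes there. In normal growth ELL2 passed in 1 of 7 alternatives that kept all arrays. Compared directly with the shCDK19 line, shCDK8 cells showed 2 of the 9 higher, 2 lower in normal growth (26.1% of all genes passed) and 1 lower in 5FU (5.14%). They had 1 higher and 3 lower in low glucose (26%) and 3 lower under hypoxia (12.4%). These comparisons share arrays: both knockdown lines were set against the same shControl arrays.
The summed linear signal of 6 leukocyte marker genes was higher on shCDK8 than on shControl arrays. It was 2844 to 3100 in shCDK8 cells and 1041 to 1068 in shControl cells in normal growth. In shCDK8 against shControl cells it was 1597 to 1740 against 1407 to 1469 in 5FU, 2352 to 2509 against 1491 to 1673 in low glucose, and 3260 to 3349 against 2371 to 2699 under hypoxia. PTPRC, the pan-leukocyte marker, stayed at or near the floor of 4.32, with group means of at most 4.48, and CD3E, CD14 and ITGAM had group means within 5.88 to 6.40, 6.34 to 7.07 and 6.40 to 6.74. The genes with the widest range of group means were LYZ (4.90 to 10.59) and CD68 (9.11 to 11.07). In shControl cells the same sum was 1407 to 1469 in 5FU and 1016 to 1044 in DMSO, 1491 to 1673 in low and 827 to 867 in high glucose, and 2371 to 2699 in hypoxia and 1041 to 1068 in normal growth. The part of these markers in the results was not tested.

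**Figure D2:**
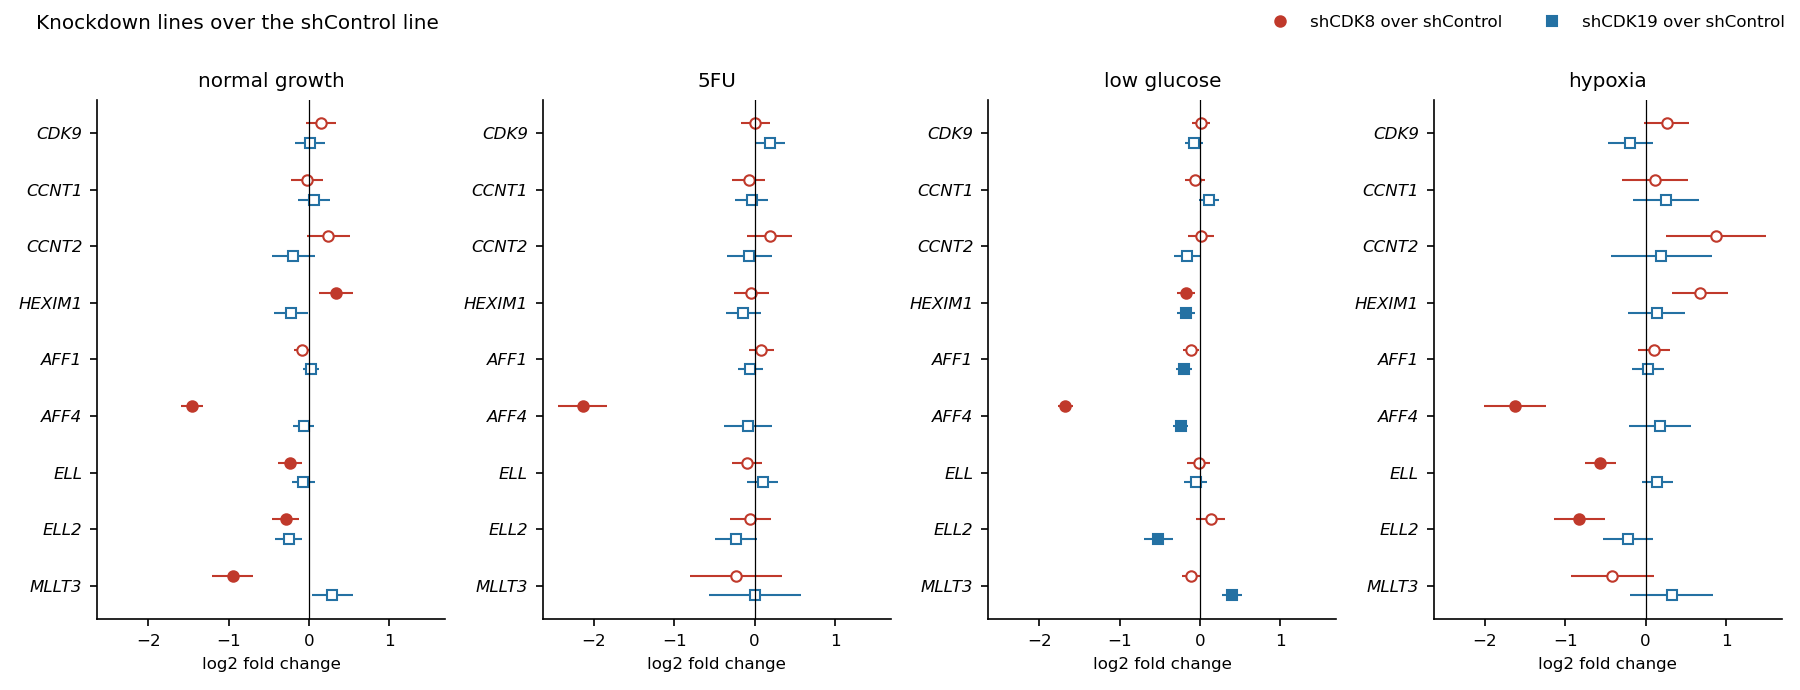
Log2 fold change of each gene in the shCDK8 line (red circles) and the shCDK19 line (blue squares) over the shControl line, in 4 conditions; bars are 95% confidence intervals, and filled symbols passed at an adjusted p under 0.05. AFF4 stands at -1.46, -2.14, -1.68 and -1.63 in the shCDK8 line from left to right.

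The kinase gene CDK9 did not pass in either knockdown line in any condition. Its changes lay between 0.01 and 0.26 in the shCDK8 line and between -0.19 and 0.19 in the shCDK19 line. Under hypoxia CDK9 read 11.36 on both shCDK8 arrays, 10.90 and 10.91 on shCDK19 arrays, and 10.97 and 11.22 on shControl arrays. The arrays of the knockdown lines did not overlap, and their difference of 0.46 ± 0.11 missed the threshold (adjusted p = 0.0634, 95% interval 0.18 to 0.74). CCNT1, the cyclin of most P-TEFb in many cells, had changes between -0.07 and 0.12 in the shCDK8 line and between -0.04 and 0.25 in the shCDK19 line, none past the threshold. In low glucose CCNT1 was lower in shCDK8 than in shCDK19 cells by -0.17 ± 0.05 (adjusted p = 0.0455), with 1 shCDK8 array (11.28) close to the shCDK19 arrays (11.31 to 11.32). That call was lost in 5 of 6 runs that each left out an array, all but the one without shCDK8 replicate 2 (adjusted p up to 0.148).
CCNT2, the alternative cyclin, differed between the knockdown lines in normal growth. In normal growth it read 9.70, 10.10 and 9.97 on shCDK8 arrays, 9.60, 9.56 and 9.32 on shCDK19 arrays, and 9.59, 9.70 and 9.77 on shControl arrays. The shCDK8 arrays lay above the shCDK19 arrays, by 0.43 ± 0.12 (adjusted p = 0.0280), and overlapped the shControl arrays (0.24 ± 0.12, adjusted p = 0.200). The difference between the knockdown lines missed the threshold without shCDK8 replicate 2 or 3 or shCDK19 replicate 2 or 3 (adjusted p up to 0.0849). Under hypoxia CCNT2 read 9.90 and 9.75 on shCDK8 arrays, 9.04 and 9.24 on shCDK19 arrays, and 8.61 and 9.28 on shControl arrays. All shCDK8 arrays lay above the others, but the change of 0.87 ± 0.24 over shControl missed the threshold (adjusted p = 0.104). Without shControl hypoxia replicate 1, the lowest array, it was 0.54 (adjusted p = 0.0829).
HEXIM1, the inhibitor of stored P-TEFb, was higher in shCDK8 cells in normal growth and slightly lower in low glucose. In normal growth it read 10.18, 10.51 and 10.46 on shCDK8 arrays, 9.84, 9.91 and 9.73 on shCDK19 arrays, and 10.00, 10.12 and 10.03 on shControl arrays. The 3 lines did not overlap. In shCDK8 cells HEXIM1 exceeded its shControl level by 0.33 ± 0.09 (adjusted p = 0.0340) and its shCDK19 level by 0.56 ± 0.09 (adjusted p = 0.00353). The change in the shCDK19 line, -0.22 ± 0.09, did not pass (adjusted p = 0.238). The call over shControl was lost in 5 of 6 runs that each left out an array, all but the one without shCDK8 replicate 1, with changes from 0.27 to 0.43 and adjusted p up to 0.112.
In low glucose HEXIM1 read 10.39, 10.40 and 10.49 on shCDK8 arrays, 10.47, 10.43 and 10.39 on shCDK19 arrays, and 10.65, 10.51 and 10.66 on shControl arrays. Both knockdown lines lay below the shControl line, by -0.18 ± 0.05 (shCDK8, adjusted p = 0.0292) and -0.17 ± 0.05 (shCDK19, adjusted p = 0.0336). These small calls were lost when genes at the floor on most arrays were left out (adjusted p = 0.0536 and 0.0608), in 1 fit of all 35 arrays (0.154 and 0.172), and each in 4 of 6 runs that left out an array, among them shControl replicate 1 or 3. Under hypoxia HEXIM1 read 10.49 and 10.41 on shCDK8 arrays, 9.88 and 9.94 on shCDK19 arrays, and 9.60 and 9.94 on shControl arrays. The shCDK8 arrays stood above all others, with a change of 0.68 ± 0.14 over shControl that missed the threshold (adjusted p = 0.0563). Without shControl hypoxia replicate 1 that change was 0.51 and passed (adjusted p = 0.0389).
AFF4, the scaffold that binds P-TEFb and the other subunits of the super elongation complex, was lower in the shCDK8 line in every condition measured. In normal growth it read 8.64, 8.77 and 8.74 on shCDK8 arrays, 10.19, 10.12 and 10.01 on shCDK19 arrays, and 10.21, 10.18 and 10.14 on shControl arrays. AFF4 was 2.75-fold lower in shCDK8 than in shControl cells (-1.46 ± 0.06, adjusted p = 3.24e-06). Without shCDK8 normal growth replicate 1 the change was -1.42.
In 5FU AFF4 read 8.22 and 8.20 on shCDK8 arrays, 10.19 and 10.34 on shCDK19 arrays, and 10.36 and 10.33 on shControl arrays. This was the widest gap, 4.4-fold lower in shCDK8 than in shControl cells (-2.14 ± 0.12, adjusted p = 0.00162). In low glucose the values were 8.92, 8.97 and 8.89 on shCDK8 arrays, 10.31, 10.43 and 10.35 on shCDK19 arrays, and 10.62, 10.63 and 10.57 on shControl arrays. The change was -1.68 ± 0.04 in shCDK8 cells (adjusted p = 2.99e-09) and a much smaller -0.24 ± 0.04 in shCDK19 cells (adjusted p = 0.00273), and no arrays of the 3 lines overlapped.
Under hypoxia AFF4 read 8.81 and 8.61 on shCDK8 arrays, 10.50 and 10.52 on shCDK19 arrays, and 10.16 and 10.51 on shControl arrays. The shCDK8 arrays lay below all others, and the change over shControl was -1.63 ± 0.15 (adjusted p = 0.0110). It was -1.80 without shControl hypoxia replicate 1 (adjusted p = 0.0141). With only 1 shCDK8 array it kept its size but not its call, at -1.73 without replicate 1 (adjusted p = 0.130) and -1.53 without replicate 2 (adjusted p = 0.138). Set directly against the shCDK19 line, AFF4 was lower in shCDK8 cells by -1.39 ± 0.06 in normal growth, -2.06 ± 0.12 in 5FU, -1.44 ± 0.04 in low glucose and -1.80 ± 0.15 under hypoxia. The adjusted p-values were 4.48e-06, 0.00257, 1.03e-08 and 0.00790, the last lost when any of the 4 arrays was left out (0.0947 to 0.117).
AFF1, the other scaffold, moved little. Its changes in the shCDK8 line lay between -0.11 and 0.10, and none passed. In the shCDK19 line it was lower in low glucose, at 10.52, 10.51 and 10.49 on shCDK19 arrays against 10.69, 10.74 and 10.69 on shControl arrays. These arrays did not overlap, and the change was -0.20 ± 0.04 (adjusted p = 0.0113). In shCDK8 cells in low glucose AFF1 read 10.68, 10.60 and 10.51, with a change of -0.11 ± 0.04 (adjusted p = 0.115).
ELL, an elongation factor that raises the rate of RNA polymerase II, was lower in shCDK8 than in shControl cells both in normal growth and under hypoxia. In normal growth it read 8.48, 8.60 and 8.69 on shCDK8 arrays, 8.71, 8.83 and 8.73 on shCDK19 arrays, and 8.77, 8.83 and 8.88 on shControl arrays. The shCDK8 arrays lay just below the others, with a change of -0.24 ± 0.06 over shControl (adjusted p = 0.0316), a call lost without any 1 of the 3 shControl arrays or without shCDK8 replicate 2 (adjusted p up to 0.109). Under hypoxia ELL read 8.60 and 8.56 on shCDK8 arrays, 9.31 and 9.28 on shCDK19 arrays, and 9.12 and 9.17 on shControl arrays. ELL was lower in hypoxic shCDK8 cells by -0.56 ± 0.07 than in shControl cells (adjusted p = 0.0232) and by -0.71 ± 0.07 than in shCDK19 cells (adjusted p = 0.0116), the second call being lost without any 1 of its 4 arrays (adjusted p 0.119 to 0.142). In 5FU and low glucose its changes in shCDK8 cells were -0.09 and -0.02, and in the shCDK19 line its changes lay between -0.07 and 0.15, none past the threshold.
ELL2, a paralogue with the same role, was lower in shCDK8 cells under hypoxia and in normal growth, and lower in shCDK19 cells in low glucose. Under hypoxia it read 8.88 and 8.76 on shCDK8 arrays, 9.43 on both shCDK19 arrays, and 9.51 and 9.78 on shControl arrays. The shCDK8 arrays lay below all others, by -0.83 ± 0.12 against shControl (adjusted p = 0.0294) and -0.61 ± 0.12 against shCDK19 (adjusted p = 0.0428). The call against shCDK19 was lost without any 1 of its 4 arrays (adjusted p 0.209 to 0.262), in the ordinary linear model (0.119) and for the other ELL2 cluster (0.272). In normal growth ELL2 read 8.57, 8.81 and 8.79 on shCDK8 arrays, 8.84, 8.76 and 8.69 on shCDK19 arrays, and 9.002, 9.042 and 9.012 on shControl arrays. Both knockdown lines lay below the shControl arrays, with changes of -0.29 ± 0.07 (shCDK8, adjusted p = 0.0207) and -0.26 ± 0.07 (shCDK19, adjusted p = 0.0827). The shCDK8 call was lost without any 1 of the 3 shControl arrays (adjusted p up to 0.0723).
In low glucose ELL2 read 9.55, 9.74 and 9.69 on shCDK8 arrays, 9.002, 9.100 and 8.913 on shCDK19 arrays, and 9.50, 9.42 and 9.65 on shControl arrays. Here the shCDK19 arrays were the low ones, by -0.52 ± 0.08 against shControl (adjusted p = 0.00149), and the shCDK8 line was higher than the shCDK19 line by 0.65 ± 0.08 (adjusted p = 0.000234). The other ELL2 cluster had the same sign but did not pass for the shCDK8 line over shControl, at -0.46 in normal growth (adjusted p = 0.277) and -0.86 under hypoxia (adjusted p = 0.230). Leaving out either hypoxic shCDK8 array ended the hypoxia calls of ELL and ELL2 over shControl (adjusted p up to 0.229 and 0.233), with changes between -0.59 and -0.54 for ELL and between -0.97 and -0.69 for ELL2 over all arrays left out.
MLLT3, which encodes the histone reader AF9, had its clearest knockdown difference in normal growth. It read 6.51, 6.88 and 6.61 on shCDK8 arrays, 8.04, 7.91 and 7.76 on shCDK19 arrays, and 7.71, 7.60 and 7.55 on shControl arrays. The 3 lines did not overlap. MLLT3 was 1.94-fold lower in shCDK8 than in shControl cells (-0.95 ± 0.11, adjusted p = 0.000616) and 2.36-fold lower than in shCDK19 cells (-1.24 ± 0.11, adjusted p = 0.000179). In the shCDK19 line the change of 0.29 ± 0.11 did not pass (adjusted p = 0.197).
In low glucose MLLT3 read 7.11, 6.97 and 6.94 on shCDK8 arrays, 7.57, 7.51 and 7.45 on shCDK19 arrays, and 7.15, 7.16 and 7.03 on shControl arrays. The shCDK19 arrays were the highest, by 0.40 ± 0.06 over shControl (adjusted p = 0.000757), while the shCDK8 and shControl arrays overlapped (-0.11 ± 0.06, adjusted p = 0.207). In 5FU all 3 lines overlapped, at 5.71 and 6.27 on shCDK8 arrays, 6.22 and 6.25 on shCDK19 arrays, and 6.46 and 5.98 on shControl arrays. Group means of MLLT3 there were 5.99 to 6.23, close to those of CD3E (5.88 to 6.40) and the endothelial marker VWF (5.84 to 6.39). Whether a further fall could show at so dim a signal was not tested. Under hypoxia MLLT3 read 6.998 and 7.049 on shCDK8 arrays, 7.73 and 7.79 on shCDK19 arrays, and 7.16 and 7.73 on shControl arrays, with no change past the threshold.
The next comparisons asked what each stress did. In shControl cells 5FU raised 3 of the 9 genes over DMSO and lowered none past the threshold, where 11.5% of all genes passed. The median of the 9 was 0.37, beside -0.02 over all genes. CCNT1 read 11.35 and 11.46 in 5FU against 10.82 and 10.93 in DMSO (0.53 ± 0.08, adjusted p = 0.0176). ELL read 9.23 and 9.10 in 5FU against 8.70 and 8.66 in DMSO (0.49 ± 0.08, adjusted p = 0.0177). ELL2 read 9.62 and 9.64 in 5FU against 9.14 and 9.06 in DMSO (0.53 ± 0.10, adjusted p = 0.0308).
The arrays of these 3 genes did not overlap between 5FU and DMSO, but the share of all genes without overlap was not counted. With 2 arrays per group their calls were not firm: that of ELL2 was lost when any of the 4 arrays was left out (adjusted p between 0.0722 and 0.144), and an ordinary linear model called 0 of the 9 genes. CCNT1 missed the threshold without DMSO replicate 1 or either 5FU array (adjusted p up to 0.0999), and ELL without either 5FU array (up to 0.107). CCNT2 (0.39 ± 0.11), AFF4 (0.37 ± 0.12) and MLLT3 (-0.81 ± 0.23) did not pass, with adjusted p-values of 0.0874, 0.124 and 0.0857, and passed with each array's median subtracted (0.0277, 0.0436 and 0.0355). Of 8 alternatives that kept all arrays, CCNT2 and AFF4 each passed in 2 and MLLT3 in 4. Without DMSO replicate 1 the changes of CCNT2 and AFF4 were 0.22 and 0.19. With single arrays left out, that of MLLT3 lay between -1.05 and -0.56.
Low glucose raised 5 of the 9 genes over high glucose in shControl cells and lowered 1, where 31.2% of all genes passed. The one lowered, MLLT3, changed most: it read 7.15, 7.16 and 7.03 in low glucose against 8.26, 8.26 and 8.28 in high glucose (-1.15 ± 0.06, adjusted p = 4.99e-07). ELL2 rose most, at 9.50, 9.42 and 9.65 in low glucose against 8.77, 8.67 and 8.89 in high glucose (0.75 ± 0.08, adjusted p = 6.38e-05). ELL read 9.15, 9.12 and 9.06 in low glucose against 8.75, 8.79 and 8.65 in high glucose (0.38 ± 0.06, adjusted p = 0.00120).
None of these arrays overlapped between the media, but here too the share of all genes without overlap was not counted. HEXIM1 also rose, at 10.65, 10.51 and 10.66 against 10.30, 10.31 and 10.25 (low against high glucose, 0.31 ± 0.05, adjusted p = 0.000794). AFF4 and CDK9 rose by 0.18 ± 0.04 (adjusted p = 0.00896) and 0.18 ± 0.05 (adjusted p = 0.0199), the CDK9 call being lost without high glucose replicate 2 or 3 or low glucose replicate 1 or 3 (adjusted p up to 0.0737) and the AFF4 call in 1 fit of all 35 arrays (adjusted p = 0.112). CCNT1 (-0.06), CCNT2 (0.12) and AFF1 (-0.02) did not pass. Knockdown cells in high glucose were not analysed here, so the response of those lines to low glucose was not tested.
Hypoxia was set against normal growth within each line. The groups belong to different experiments, so experiment and oxygen cannot be told apart. In shCDK8 cells none of the 9 genes passed by limma (1 had an unadjusted p under 0.05, and an ordinary linear model called 0), where 9.1% of all genes passed. In shCDK19 cells 3 were higher and 2 lower (31.3% of all genes passed), and in shControl cells 2 were higher and 4 lower (47.8%). Their medians were 0.01, -0.04 and -0.18.
The elongation factors ELL and ELL2 rose in shCDK19 and shControl cells. ELL changed by -0.01 ± 0.07 in shCDK8 cells (adjusted p = 0.991, 95% interval -0.15 to 0.13), by 0.54 ± 0.07 in shCDK19 cells (adjusted p = 8.77e-07) and by 0.32 ± 0.07 in shControl cells (adjusted p = 0.000596). ELL2 changed by 0.09 ± 0.10 in shCDK8 cells (adjusted p = 0.698, 95% interval -0.10 to 0.29), by 0.66 ± 0.10 in shCDK19 cells (adjusted p = 4.78e-06) and by 0.63 ± 0.10 in shControl cells (adjusted p = 1.14e-05). Both rises in shControl cells held without shControl hypoxia replicate 1, at 0.34 for ELL and 0.77 for ELL2. The ELL window held 4 core matches, as printed above, and ELL2 had no window to search. Windows of CCNT1, CCNT2 and AFF1, which were lower in hypoxic shControl cells, and of AFF4 held core matches too. The part of these letters in the changes was not tested.
CCNT2 fell in hypoxic shControl cells, at 8.61 and 9.28 in hypoxia against 9.59, 9.70 and 9.77 in normal growth. The arrays did not overlap, and the change was -0.74 ± 0.14 (adjusted p = 0.000158), or -0.41 without shControl hypoxia replicate 1 (adjusted p = 0.0331). HEXIM1 (-0.28 ± 0.09, adjusted p = 0.0162) and CCNT1 (-0.24 ± 0.09, adjusted p = 0.0449) were lower in hypoxic shControl cells, and without that array their changes were -0.10 (adjusted p = 0.545) and -0.03 (adjusted p = 0.899). These 2 calls were also lost with each array's median subtracted and after quantile normalization.
AFF1 was lower under hypoxia in shControl cells (-0.18 ± 0.05, adjusted p = 0.00564) and in shCDK19 cells (-0.16 ± 0.05, adjusted p = 0.0120), calls that were likewise lost under both scalings, and in shCDK19 cells without hypoxia replicate 1 (adjusted p = 0.173). AFF4 rose in shCDK19 cells (0.40 ± 0.09, adjusted p = 0.000811), at 10.50 and 10.52 in hypoxia against 10.19, 10.12 and 10.01 in normal growth, and CDK9 fell slightly there (-0.20 ± 0.08, adjusted p = 0.0474). CDK9 missed the threshold in 4 of 5 runs that left out an array (adjusted p up to 0.183), all but normal growth replicate 3. In shCDK8 cells AFF4 changed by -0.01 ± 0.09 (adjusted p = 0.992). The summed signal of fibroblast markers in shControl cells was 1351 to 1622 in hypoxia and 977 to 993 in normal growth over 7 genes. Of these COL1A1 had the highest group means (8.35 to 9.78), and DCN and LUM were at the floor on 23 and 33 of the 35 arrays. The part of these markers in the changes was not tested.

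**Figure D3:**
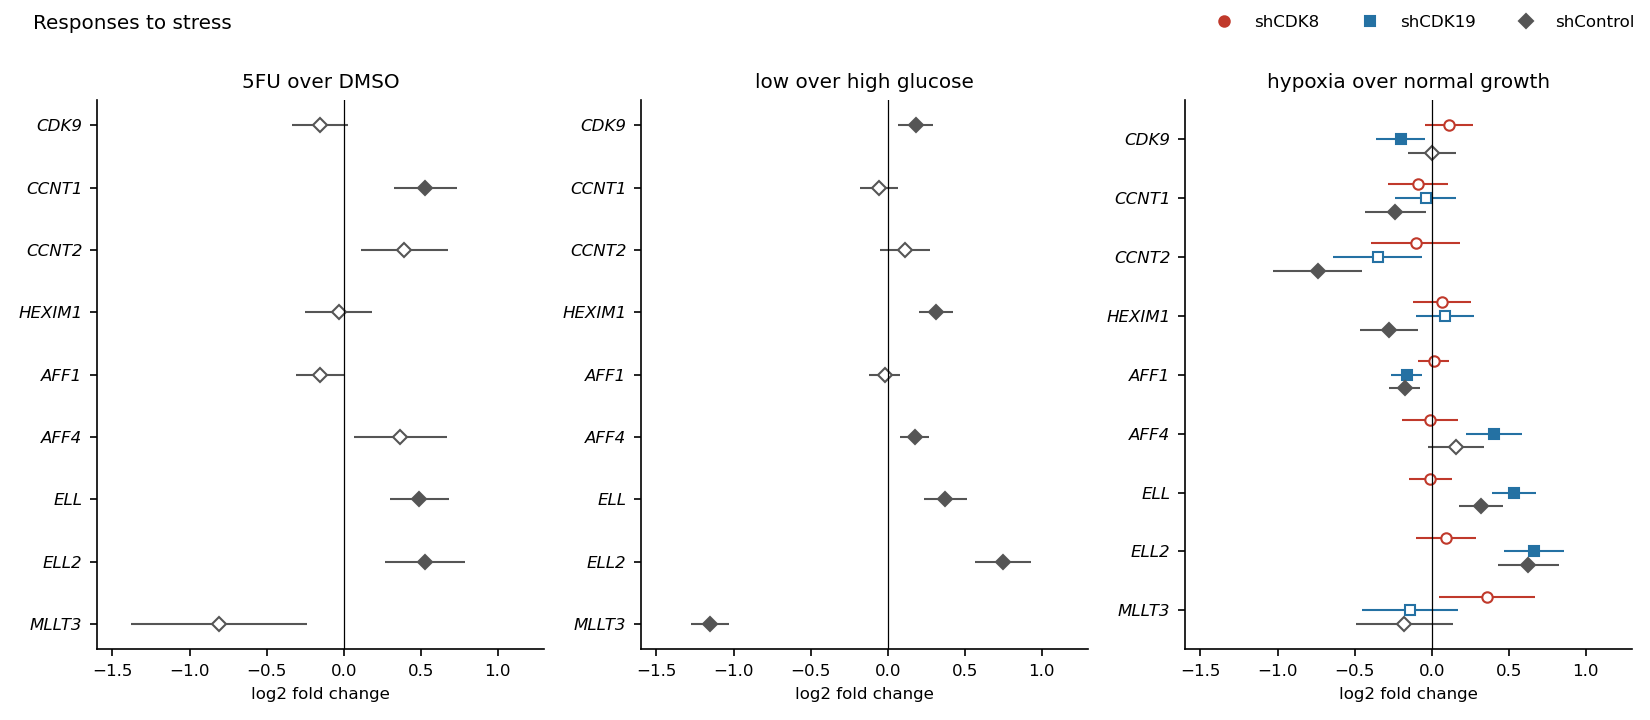
Log2 fold change of each gene under 5FU over DMSO and low over high glucose in shControl cells, and under hypoxia over normal growth in the 3 lines; bars are 95% confidence intervals, and filled symbols passed at an adjusted p under 0.05. In the hypoxia panel ELL stands at -0.01 in shCDK8, 0.54 in shCDK19 and 0.32 in shControl cells.

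Whether a knockdown's effect differed between conditions was tested as the difference of its effects, in 1 fit of all 35 arrays. For the shCDK8 line, hypoxia against normal growth gave 1 higher and 2 lower differences among the 9 genes, where 11.5% of all genes passed. The shCDK8 effect on ELL2 was lower under hypoxia by -0.53 ± 0.13 (adjusted p = 0.0104) and that on ELL by -0.33 ± 0.10 (adjusted p = 0.0283). Without shControl hypoxia replicate 1 these were -0.67 (adjusted p = 0.00525) and -0.35 (adjusted p = 0.0659). For the other ELL2 cluster the difference was -0.40 (adjusted p = 0.469). The effect on CCNT2 was higher under hypoxia by 0.64 ± 0.20 (adjusted p = 0.0374), and by 0.30 without that array (adjusted p = 0.432). Of the 10 arrays left out in turn, 6 ended the calls of CCNT2 and of ELL (adjusted p up to 0.0908 for ELL), and shCDK8 hypoxia replicate 2 that of ELL2 (0.0594). Among the 6 for CCNT2 was shCDK8 normal growth replicate 1 (0.53, adjusted p = 0.113).
In 5FU the shCDK8 effect on AFF4 was deeper than in normal growth, by -0.68 ± 0.13 (adjusted p = 0.000457), and that on MLLT3 was shallower, by 0.72 ± 0.21 (adjusted p = 0.0258). These were the 2 of 9 genes that passed, where 11.9% of all genes did. MLLT3 was at its dimmest in 5FU in every line, and the part of that in the difference was not tested. In low glucose 3 of the 9 passed, where 12.8% of all genes did. They were MLLT3 (0.84 ± 0.19, adjusted p = 0.00334), HEXIM1 (-0.51 ± 0.11, adjusted p = 0.00324) and ELL2 (0.43 ± 0.12, adjusted p = 0.0177). The shCDK8 effect on AFF4 did not pass as different from normal growth in low glucose (-0.22 ± 0.11, adjusted p = 0.248) or hypoxia (-0.17 ± 0.13, adjusted p = 0.387). The MLLT3 call in 5FU was lost without any 1 of 5 arrays, furthest without 5FU replicate 2 of shCDK8 (0.44, adjusted p = 0.276) or shControl (0.48, adjusted p = 0.246), and also without shCDK8 normal growth replicate 1 (adjusted p = 0.0608). The ELL2 call in low glucose was lost without shCDK8 normal growth replicate 1 (0.35, adjusted p = 0.0589), shControl low glucose replicate 2 or shCDK8 low glucose replicate 2, and did not pass for the other ELL2 cluster (0.49, adjusted p = 0.418).
For the shCDK19 line no difference of effects passed by limma among the 9 genes, in 5FU (4% of all genes), low glucose (1.79%) or hypoxia (2.08%). Of the 9, 0, 2 and 2 had an unadjusted p under 0.05. An ordinary linear model called 1 of the 9 in low glucose, AFF1 (-0.22, adjusted p = 0.0455), and 0 in 5FU and hypoxia.
Other genes of elongation were counted from a list of 37, of which 35 had a cluster of their own. The list holds further 7SK and super elongation complex partners, pausing factors, the PAF1 complex, histone chaperones, TFIIS and elongin, the CDK12 and CDK13 kinases and TFIIF. In the shCDK8 line over shControl, 2 were higher and 7 lower in normal growth, with a median of -0.02. These calls made 25.7% of the 35, beside 24.9% of all genes. The lowest were CTR9, a PAF1 complex subunit (-0.79 ± 0.06, adjusted p = 0.000107), TCEA3, a TFIIS paralogue (-0.66 ± 0.06, adjusted p = 0.000192), the pausing factor subunit NELFCD (-0.47 ± 0.08, adjusted p = 0.00527) and the histone chaperone subunit SSRP1 (-0.45 ± 0.06, adjusted p = 0.000941).
The other conditions gave fewer or mixed calls. In 5FU TCEA3 alone of the 35 passed, lower in shCDK8 cells (-0.82 ± 0.06, adjusted p = 0.00390). In low glucose 6 were higher and 4 lower, with TCEA3 at -0.67 ± 0.12 (adjusted p = 0.00241) and the elongin subunit ELOA at 0.31 ± 0.06 (adjusted p = 0.00245). Under hypoxia 1 was lower, SSRP1 (-0.51 ± 0.09, adjusted p = 0.0416). The median of the 35 was 0.04 in 5FU, 0.02 in low glucose and 0.19 under hypoxia. By limma 2.86%, 28.6% and 2.86% of the 35 passed in these conditions, beside 3.5%, 22.3% and 7.3% of all genes.
In the shCDK19 line 1 of the 35 was higher and 3 lower in normal growth, with CDC73, a PAF1 complex subunit, lowest (-0.54 ± 0.08, adjusted p = 0.00609) and TCEA3 higher (0.40 ± 0.06, adjusted p = 0.00720). In 5FU 1 was lower, the pausing and elongation factor SUPT5H (-0.73 ± 0.06, adjusted p = 0.0141). In low glucose 5 were higher and 3 lower, with TCEA3 (0.63 ± 0.12, adjusted p = 0.00418) and CDC73 (-0.48 ± 0.04, adjusted p = 6.20e-05) at the ends. HEXIM2, the paralogue of HEXIM1, was higher there (0.40 ± 0.06, adjusted p = 0.00172). None of the 35 passed by limma under hypoxia (0.228% of all genes), where 2 had an unadjusted p under 0.05. Calls in normal growth, 5FU and low glucose made 11.4%, 2.86% and 22.9% of the 35, beside 7.07%, 0.837% and 19.9% of all genes.
Among the stresses in shControl cells, 5FU gave 6 higher and 1 lower of the 35, with CCNK, the cyclin of CDK12, highest (0.50 ± 0.06, adjusted p = 0.0102), a count that was 0 without either 5FU array. Low glucose gave 11 higher and 6 lower, with TCEA1 highest (0.63 ± 0.07, adjusted p = 9.05e-05) and EAF2, a partner of ELL, lowest (-0.57 ± 0.07, adjusted p = 0.000203). Hypoxia against normal growth gave 0 higher and 22 lower, with a median of -0.31 beside 0.06 over all genes. Subtracting each array's median gave 3 higher and 16 lower, against 3 and 14 after quantile normalization and 0 and 13 without shControl hypoxia replicate 1. CTR9 was lowest (-0.80 ± 0.07, adjusted p = 8.00e-09). ELL and ELL2 rose in that comparison. By limma 20%, 48.6% and 62.9% of the 35 passed in 5FU, low glucose and hypoxia, beside 11.5%, 31.2% and 47.8% of all genes.
Under hypoxia against normal growth 0 of the 35 were higher and 4 lower in shCDK8 cells, with SUPT4H1 lowest (-0.36 ± 0.07, adjusted p = 0.00179). In shCDK19 cells 1 was higher and 14 lower, with CTR9 lowest (-0.83 ± 0.07, adjusted p = 2.91e-09). These calls were 11.4% of the 35 in shCDK8 and 42.9% in shCDK19 cells, beside 9.1% and 31.3% of all genes. The shCDK8 effect on CTR9 was higher under hypoxia than in normal growth by 0.70 ± 0.10 (adjusted p = 0.000119).

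**Figure D4:**
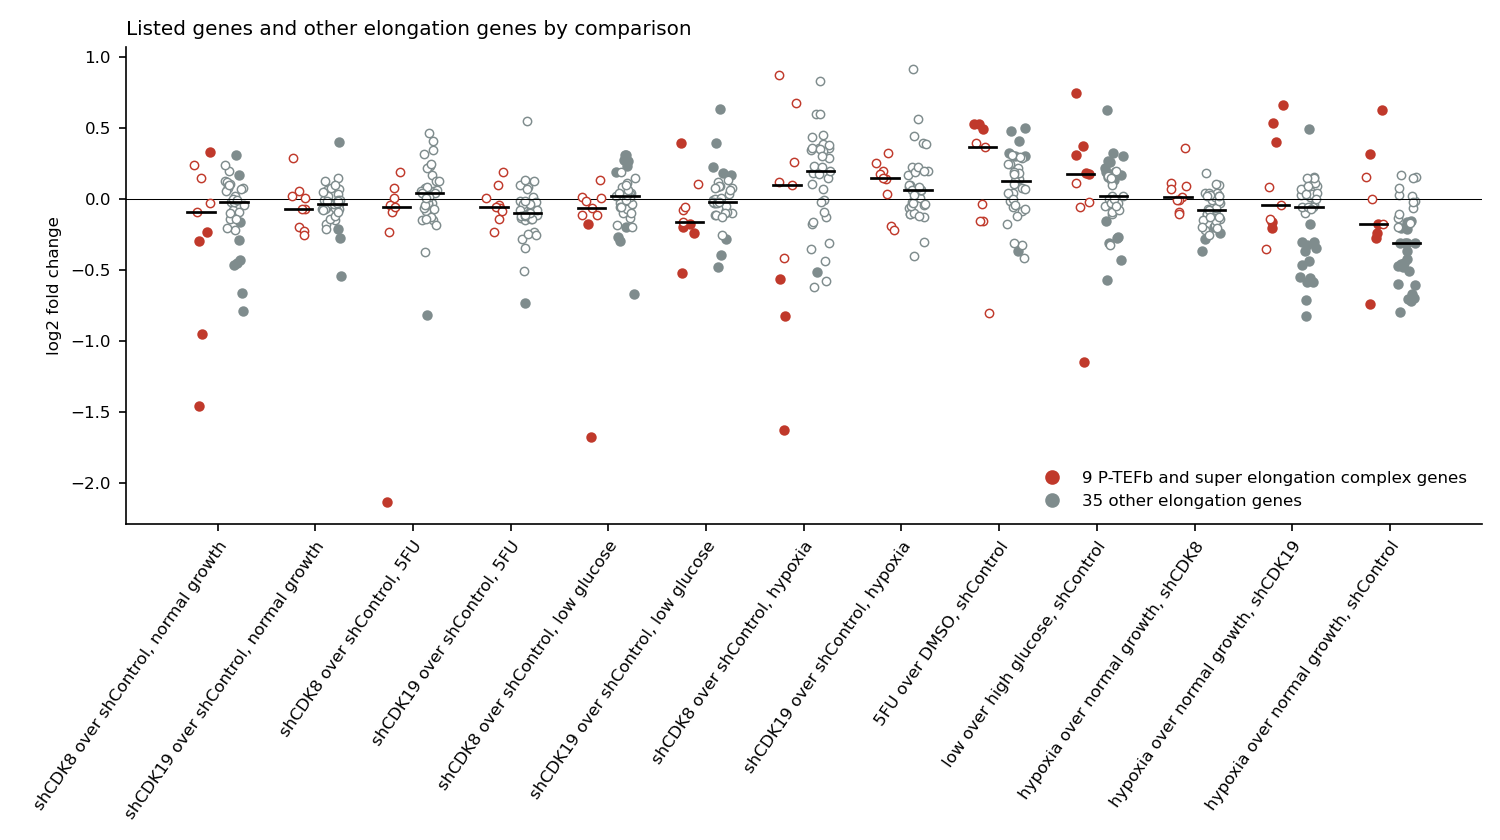
Log2 fold change (vertical axis) of the 9 P-TEFb and super elongation complex genes (red) and of 35 other elongation genes (grey) in 13 comparisons (horizontal axis); each point is a gene, filled points passed at an adjusted p under 0.05, and black bars are medians. In hypoxic over normally grown shControl cells the grey median is -0.31 and that of the red points is -0.18.

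The pattern over the 14 group means was also compared between genes, as a description, since the groups share lines, experiments and control arrays. Among the 9 genes ELL and ELL2 were most alike (Pearson r = 0.84), followed by AFF1 with MLLT3 (0.78) and AFF1 with CDK9 (0.74). AFF4 and its paralogue AFF1 had r = 0.09, and CDK9 had 0.17 with CCNT2 and -0.05 with CCNT1. AFF4 and CCNT2 ran most opposite (-0.59). Among all genes above the floor, those most like AFF4 were ARAF (0.98), CYP4F11 (0.96) and NFIB (0.95). For MLLT3 they were SYNGR1 (0.97), PREX1 (0.96) and TNFAIP8L1 (0.94). CDK9 was most like PSPH (0.98), TRIM7 (0.98) and FLYWCH2 (0.97), and CCNT2 most like MFAP3 (0.95), SMARCD1 (0.94) and KIN (0.93).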

How the data were processed

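Total RNA from HCT116 cells was hybridised to Affymetrix gene arrays, per the labels' protocols. What the authors deposited is a log2 signal for each transcript cluster on each array, which was judged from the values' range. Partek was used, per the submitters' processing notes, with no version. Background correction, summarization and normalization: not given in the sources used here. A shared floor of 20 before the logarithm held 8.48% to 9.97% of an array's clusters and shortens the change of dim genes. The number of arrays limits the precision.
Among 32321 clusters, 19158 named a single gene, 1388 several and 11775 none listed. Keeping the brightest cluster per gene left 18404 genes. Groups came from the sample titles. Comparisons inside an experiment used lmFit and eBayes (limma 3.58.1, R 4.3.3) on that experiment's arrays, while hypoxia against normal growth and differences of effects used 1 fit of 35 arrays. P-values are two-sided and Benjamini-Hochberg adjusted over all genes. The code was tested on simulated data.
The 10 genes, the list of other elongation genes and the tests were chosen with earlier results of these data known. By rule all 10 were described in every comparison, with CDK8 and CDK19 as checks. At most 4 of the other elongation genes were named per comparison, from those with the largest change past the threshold. For the 4 genes with the widest range, the 3 genes most alike by Pearson r were named. Marker lists covered epithelium, leukocytes, fibroblasts and endothelium. Alternatives were array medians subtracted, quantile normalization, a floor filter, 1 fit of all arrays, no moderation, a replicate block, the next cluster and each array left out. Same-numbered arrays did not deviate together in any comparison with 3 or more pairs (not every r was over 0.1), so the numbers were not taken as pairs. Promoter windows came from RefSeq, matched by symbol. Figures were drawn with matplotlib 3.10.9.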

Additional observations from a re-analysis of the deposited data

Results flagged for a closer look

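The shCDK8 effect differed between a stress and normal growth for 8 of the gene and stress pairs tested, by a test of the difference itself in limma over all 35 arrays. They were 22.2% of the 9 genes in 5FU, 33.3% in low glucose and 33.3% under hypoxia, beside 11.9%, 12.8% and 11.5% of all genes. The stressed and the normally grown cells belong to different experiments, so experiment and stress cannot be told apart. For AFF4 the effect in 5FU was lower than in normal growth by -0.68 (shCDK8 over shControl -2.14 in 5FU and -1.46 in normal growth). For MLLT3 the difference was 0.72 in 5FU (-0.23 in 5FU and -0.95 in normal growth) and 0.84 in low glucose (-0.11 in low glucose and -0.95 in normal growth). MLLT3 was at its dimmest in 5FU, and the part of that in its 5FU difference was not tested. HEXIM1 differed by -0.51 in low glucose (-0.18 in low glucose and 0.33 in normal growth), where the low glucose change alone did not pass in the fit that gave this difference (adjusted p = 0.154). ELL2 differed by 0.43 in low glucose (0.13 in low glucose and -0.29 in normal growth) and by -0.53 under hypoxia (-0.83 under hypoxia and -0.29 in normal growth). ELL differed by -0.33 under hypoxia (-0.56 under hypoxia and -0.24 in normal growth). CCNT2 differed by 0.64 under hypoxia (0.87 under hypoxia and 0.24 in normal growth), and by 0.30 without shControl hypoxia replicate 1. The calls of MLLT3 in 5FU, of ELL2 in both stresses, and of ELL and CCNT2 were lost when some single arrays were left out. Neither ELL2 difference passed for the other ELL2 cluster. No group had 4 or more arrays, so single arrays were not tested as outliers.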

How the results depend on the processing

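No direction of a called change reversed under the alternatives run, and AFF4 in shCDK8 over shControl cells passed in normal growth, 5FU and low glucose in all of them. Counts are of the 9 genes called. With each array's median subtracted, 5FU over DMSO gave 6 (3 in the report) and hypoxia over normal growth in shCDK19 cells 3 (5). Over all genes these counts were 2863 (2109 in the report) and 6070 (5765). Quantile normalization gave 1 for shCDK19 over shControl in normal growth (0), 5 for shCDK8 over shCDK19 under hypoxia (3) and 5 for 5FU over DMSO (3). All genes called were then 1897 (1301), 2518 (2273) and 2776 (2109). Leaving out genes at the floor on most arrays (18051 genes left) gave 1 for shCDK8 in low glucose (2), and 3884 over all genes kept (4107). The fit of all 35 arrays gave 1 for shCDK8 in low glucose, 6 for shCDK8 under hypoxia (3), 7 for shCDK8 over shCDK19 under hypoxia and 6 for 5FU over DMSO. The matching counts over all genes were 3450 (4107), 6392 (1343), 5925 (2273) and 3526 (2109). The ordinary linear model gave 1 for shCDK8 under hypoxia, with AFF4 at an adjusted p of 0.0646, 0 for 5FU over DMSO, and 1 for the shCDK19 difference in low glucose (0). Its calls over all genes were 334 (1343), 849 (2109) and 333 (329). The cause of these shifts was not tested. With the replicate block, shCDK8 under hypoxia gave 1, and over all genes 312 in place of 1343. With 2 arrays a group and the numbers of one group crossed, the block gave 3 for that comparison, 1 for shCDK8 and 0 for shCDK19 in 5FU, 3 for shCDK8 over shCDK19 under hypoxia and 4 for 5FU over DMSO, an alternative chosen after seeing the data. Over all genes it gave 1162, 268, 13, 2182 and 2824 in the same order.
With each array left out in turn, counts for shCDK8 over shControl ranged from 2 to 6 in normal growth, 1 to 1 in 5FU, 1 to 2 in low glucose and 0 to 6 under hypoxia. For shCDK19 over shControl they ranged from 0 to 0, 0 to 0, 4 to 5 and 0 to 2 in the same order, and for shCDK8 over shCDK19 from 3 to 4, 1 to 1, 3 to 4 and 0 to 0. They ranged from 0 to 4 for 5FU over DMSO and 5 to 6 for low over high glucose. For hypoxia over normal growth they ranged from 0 to 0 in shCDK8, 3 to 6 in shCDK19 and 4 to 7 in shControl cells. Differences from normal growth ranged from 1 to 2 (5FU), 2 to 4 (low glucose) and 0 to 6 (hypoxia) for shCDK8 and 0 to 0, 0 to 0 and 0 to 4 for shCDK19. Where a group kept 1 array, that array was assumed to vary like the other groups. Groups of 2 or 3 arrays limit what can be called.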
